A study of Sus scrofa with 61 samples.

Results

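The genes described here build or stabilise vessels: the ligands VEGFA, VEGFB and VEGFC, CCBE1, the receptors KDR and FLT1, the angiopoietins ANGPT1 and ANGPT2 with their receptor TEK, and the endothelial adhesion molecule PECAM1. A probe was taken as a member if the array's gene name, or the symbol in the study's additional gene lists, was 1 of these 10 genes. This gave 25 probes of the 60305 on the array that are not controls, and all 25 were among the 42436 probes kept for testing. RNA of the longissimus muscle of 61 male pig fetuses, obtained by caesarean, was hybridised to 1-colour oligonucleotide arrays, 1 array per fetus. The fetuses were purebred Large White (LW) or Meishan (MS), or crosses of both: LWMS fetuses were carried by MS sows and sired by LW boars, and for MSLW fetuses it was the reverse. Purebreds and crosses came from the same litters, since each sow received mixed semen. At day 90 of gestation there were 8 fetuses of each genotype, and at day 110 there were 9 LW, 7 MS, 8 LWMS and 5 MSLW fetuses.

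New vessels form when VEGF ligands bind their receptors on endothelial cells. VEGFA drives sprouting through KDR, while FLT1 binds VEGFA tightly and signals weakly, so that it also acts as a decoy. VEGFC acts mainly on lymphatic endothelium and needs CCBE1 for its proteolytic activation. ANGPT1 activates TEK and keeps vessels quiet, whereas ANGPT2 mostly opposes it while vessels are remodelled. PECAM1 lies at the junctions between endothelial cells. In the longissimus, capillaries bring the growing fibres the oxygen that they will need at birth.

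Several probes stood for 1 gene, so their sequences show what was measured. VEGFA, KDR, TEK and PECAM1 had 4 probes each, VEGFB, FLT1 and ANGPT2 had 2, and VEGFC, CCBE1 and ANGPT1 had 1. Each probe was 60 bases long. No genome was used here, so the probes are given without coordinates, and their gene was not checked against a transcript. Gene names were those of the array design, except for the probes of VEGFC and CCBE1 and the main probe of KDR, 3 probes that were named only by the study's lists. Where a gene had more than 1 probe, the one on the study's lists, or else the brightest, served as its main probe. The authors drew those lists from these same arrays, for changes with age that differed between genotypes. Counts of called genes beside the share of all probes are therefore a description. One VEGFA probe, O11835, was designed against the opposite strand of the main VEGFA probe. The 2 sequences are shown because these probes differ in what they can bind. Capitals mark the 38 bases in which one is the reverse complement of the other.
VEGFA main probe A_72_P414353: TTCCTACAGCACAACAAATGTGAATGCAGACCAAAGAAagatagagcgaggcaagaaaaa
VEGFA opposite-strand probe O11835: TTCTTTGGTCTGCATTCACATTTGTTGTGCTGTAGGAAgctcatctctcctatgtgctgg

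The KDR probes shared no stretch of 12 or more bases, and 2 of them are shown because they gave opposite differences between the breeds. The main probe is given whole and the other by its first 30 bases, as are the only probes of VEGFC and CCBE1. No base is in capitals because nothing in them was marked.
KDR main probe A_72_P031271: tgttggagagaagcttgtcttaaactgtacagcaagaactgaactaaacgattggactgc
KDR probe A_72_P380298, first bases: tctacatcatagtaaaagcggatttggttt
VEGFC probe, first bases: tggtttcctgtcaatgaccaaacagccgag
CCBE1 probe A_72_P767648, first bases: acttcatactccgagagacataggagtttt

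The 2 VEGFB probes shared 54 bases on the same strand and are close to 1 measurement. No other pair of probes of a gene shared 12 or more bases in a row.

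Values are the scanner's background-corrected intensity after quantile normalisation, on the log2 scale, and differences are log2 differences. Levels of different probes are not compared. Differences come from a linear model of the 8 groups in limma, given with the standard error (SE), and a gene was called if its p, adjusted by the Benjamini-Hochberg method over all 42436 probes, was under 1%. Per array between 34346 and 45683 probes were well above background. The arrays lay on 8 slides, each with 6 to 8 of the groups. The sow is not in the sample labels, so littermates were treated as separate fetuses, and the p-values measure the spread between fetuses only. Of the 25 probes, 22 were well above background on all 61 arrays and none was saturated on any. The exceptions were CCBE1 (44 arrays), the main KDR probe (57) and the opposite-strand VEGFA probe (57). All 6 markers of skeletal muscle fibres had a kept probe, and the log2 of their summed signal ran from 20.20 to 20.78 over the arrays.

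From day 90 to day 110 the 10 genes moved in opposite directions. Averaged over the 4 genotypes, VEGFA and FLT1 rose, VEGFC, KDR, ANGPT1, ANGPT2 and PECAM1 fell, and VEGFB, CCBE1 and TEK were not called. These 7 called genes stood beside a background of 72.3% of all probes called for age, with 37.3% higher and 35% lower, so a call for age was common on this array. VEGFA was 3.04-fold higher at day 110, and ANGPT1, ANGPT2, KDR and PECAM1 changed by -1.30, -1.23, -1.09 and -0.98 on the log2 scale. The median over the 10 main probes was -0.53, against 0.04 over all probes tested.

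VEGFA, the main attractant of endothelial sprouts, separated the 2 ages completely. In LW fetuses its lowest, median and highest values were 8.69, 9.03 and 9.35 at day 90, and 10.50, 10.75 and 10.95 at day 110. In MS fetuses they were 9.45, 9.96 and 10.32 at day 90, and 11.35, 11.50 and 11.65 at day 110. The lowest fetus of day 110 in any genotype, at 10.50, lay above the highest of day 90, at 10.32. The crosses lay between the purebreds. LWMS ranged from 9.40 to 10.06 around a median of 9.64 at day 90, and from 10.82 to 11.42 around 11.25 at day 110. MSLW ranged from 9.47 to 9.99 around 9.62 at day 90, and the 5 fetuses of day 110 had 11.08, 11.22, 11.20, 11.55 and 11.26.

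The fitted rise of VEGFA was 1.72 ± 0.09 (SE) in LW (n = 8 and 9), 1.55 ± 0.10 in MS (n = 8 and 7), 1.53 ± 0.09 in LWMS and 1.61 ± 0.11 in MSLW. Averaged over genotypes it was 1.60 ± 0.05, 3.04-fold, with an adjusted p of 2.9e-36. It was higher at day 110 on 8 of 8 slides, by 1.21 to 1.94. The other 2 probes without shared bases rose by 1.23 and 1.31, and the opposite-strand probe by 0.94 ± 0.09 (adjusted p = 6.7e-14). The difference in this rise between MS and LW was -0.17 ± 0.13 (adjusted p = 0.45).

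**Figure D1:**
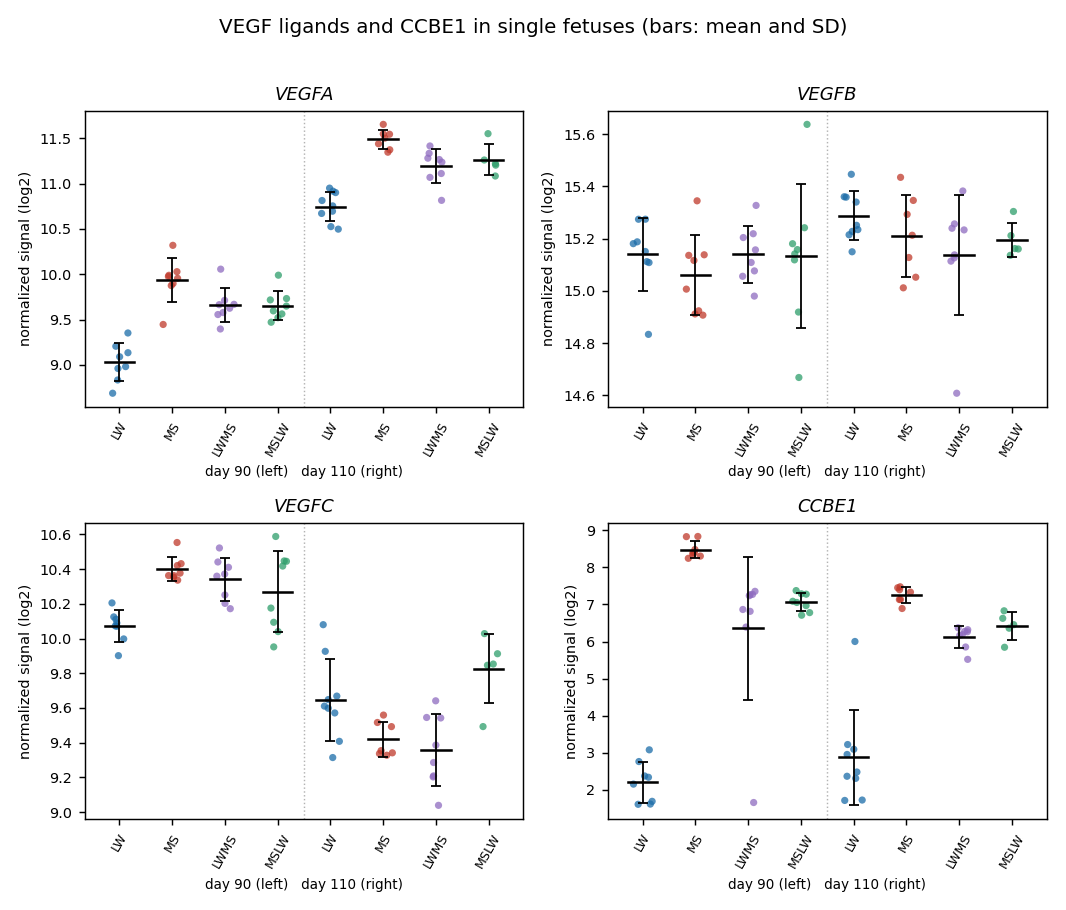
Normalised log2 signal of the main probe of VEGFA, VEGFB, VEGFC and CCBE1 in each of the 61 fetuses (points) by genotype, day 90 left and day 110 right of the dotted line; black bars are the group mean and SD. The VEGFA values of both ages do not overlap, VEGFC is lower at day 110, and CCBE1 is under 3.3 in all LW fetuses but the one at 6.002, and above 5.5 in all others but the LWMS fetus at 1.66.

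VEGFB, a ligand of FLT1, changed little after quantile normalisation. Its group means ran from 15.06 to 15.29, with SDs of 0.07 to 0.28, and every pair of groups overlapped. The age change was 0.09 ± 0.04 (adjusted p = 0.066). It was 0.61 (adjusted p = 9.0e-17) when each array was scaled to its 75th percentile instead, a scaling that moved the median of all probes only from 0.04 to 0.09, so whether VEGFB rose depended on the normalisation.

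VEGFC, the lymphatic ligand, fell in all 4 genotypes. In LW its lowest, median and highest values were 9.90, 10.08 and 10.21 at day 90, and 9.31, 9.61 and 10.08 at day 110. In MS they were 10.34, 10.37 and 10.55 at day 90, and 9.33, 9.35 and 9.56 at day 110. The ages were apart in MS, while the LW ranges overlapped. In LWMS VEGFC went from 10.17 to 10.52 (median 10.37) down to 9.04 to 9.64 (median 9.34). In MSLW the range at day 90 was 9.95 to 10.59 (median 10.30), and at day 110 the values were 9.91, 10.03, 9.85, 9.85 and 9.49, so that both ages overlapped. The fall was 0.71 ± 0.05 on average (adjusted p = 3.2e-21) and was seen on 8 of 8 slides.

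CCBE1 is the cofactor of VEGFC activation. Its age change over all genotypes, an average that includes LW arrays at background, was -0.36 ± 0.23 and was not called (adjusted p = 0.15). It was called on the deposited values (-0.45, adjusted p = 0.00011), on the median spot signal (-0.48, adjusted p = 3.9e-05) and with normexp background correction (-0.41, adjusted p = 3.3e-06). In MS fetuses, where every array was well above background, the values went from 8.24 to 8.83 (median 8.40) down to 6.89 to 7.48 (median 7.33) without overlap. The fitted change there was -1.22 ± 0.46 (adjusted p = 0.017), and the same 3 settings gave -1.02 to -1.13, all called. That SE is shared with 2 groups in which a single fetus stood far apart. Both fetuses were left out as a choice made after seeing their CCBE1 values, and the smaller SE follows from it. This gave -1.22 ± 0.19 in MS (adjusted p = 2.2e-07) and -0.62 ± 0.10 over all genotypes (adjusted p = 1.2e-07). The latter average still includes LW arrays at background.

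KDR, the signalling receptor of VEGFA, fell with all 4 of its probes. On the main probe, LW fetuses had a lowest, median and highest value of 5.62, 5.74 and 6.26 at day 90, and of 4.80, 5.09 and 5.40 at day 110. MS fetuses had 6.08, 6.38 and 6.56, and then 4.49, 5.28 and 5.64. Ages did not overlap in either breed. This probe was dim: 6 of 7 MS and 5 of 8 LWMS arrays of day 110 were well above background, and all arrays of the other groups. The value of 1 MSLW fetus of day 90 was missing. The fall was 1.09 ± 0.08 on average (2.13-fold, adjusted p = 1.9e-18), and the 3 brighter probes fell by 0.72, 0.85 and 1.19. The size on the dim main probe depended on the background correction, with -0.69 on the deposited values, -0.70 on the median spot signal and -0.49 with normexp, all called.

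FLT1, the decoy-like receptor, moved the other way. Its main probe went from 5.58 to 6.19 (median 5.96) in LW at day 90 to 6.45 to 6.98 (median 6.66) at day 110, without overlap. In MS it went from 5.80 to 6.70 (median 6.27) to 6.45 to 6.99 (median 6.64), with overlap. The rise was 0.73 ± 0.12 in LW, 0.38 ± 0.13 in MS and 0.57 ± 0.13 in LWMS, and 0.37 ± 0.15 in MSLW, which was not called (adjusted p = 0.028). The call in MS was narrow (adjusted p = 0.0098) and was lost with normexp (0.22, adjusted p = 0.015), without the filter on dim probes (adjusted p = 0.014), without the 2 fetuses that stood apart for CCBE1 (adjusted p = 0.011) and without MSLW replicate 1 of day 110 (adjusted p = 0.010). With normexp the averaged rise of FLT1 was 0.30. The other FLT1 probe rose by 0.72 ± 0.05 on average and was called in all 4 genotypes. A further probe of the same sequence that is not named FLT1 on the array, noticed after the values were seen, rose by 0.71 ± 0.05.

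Both angiopoietins fell. ANGPT1 had a lowest, median and highest value of 6.97, 7.36 and 7.76 in LW and 7.16, 7.28 and 7.39 in MS at day 90, and of 5.90, 6.21 and 6.69 in LW and 5.85, 6.02 and 6.66 in MS at day 110. The fitted change was -1.10 ± 0.11 in LW, -1.16 ± 0.12 in MS, -1.19 ± 0.13 in MSLW and -1.74 ± 0.11 in LWMS. In every genotype the ages did not overlap, and LWMS showed both the highest mean of day 90 (7.73) and the lowest of day 110 (5.99).

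ANGPT2 had a lowest, median and highest value of 10.20, 10.58 and 10.76 in LW and 10.74, 10.90 and 11.26 in MS at day 90. At day 110 they were 9.22, 9.79 and 10.16 in LW, and 9.08, 9.29 and 9.90 in MS. The median of MS was above that of LW at day 90 and below it at day 110, and the ranges overlapped at both ages. On average ANGPT2 fell by 1.23 ± 0.06 (2.34-fold, adjusted p = 6.4e-26), and its second probe by 1.11 ± 0.07.

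TEK is the receptor of both angiopoietins. The group means of its main probe ran from 8.75 to 9.20 with SDs of 0.15 to 0.39, and all groups overlapped. Its age change was 0.14 ± 0.06 (adjusted p = 0.045), that of the other 3 probes was 0.03, 0.07 and 0.30, and only the last, the dimmest, was called.

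PECAM1 fell from 13.70 to 14.25 (median 13.83) to 12.78 to 13.27 (median 13.06) in LW. In MS it fell from 13.80 to 14.15 (median 13.92) to 12.66 to 12.92 (median 12.85). The ages did not overlap in any genotype, and the fall averaged 0.98 ± 0.04 (1.97-fold, adjusted p = 4.2e-29). The other 3 probes fell by 0.45, 0.55 and 0.84, all called. With scaling to the 75th percentile the fall of the main probe was 0.63.

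**Figure D2:**
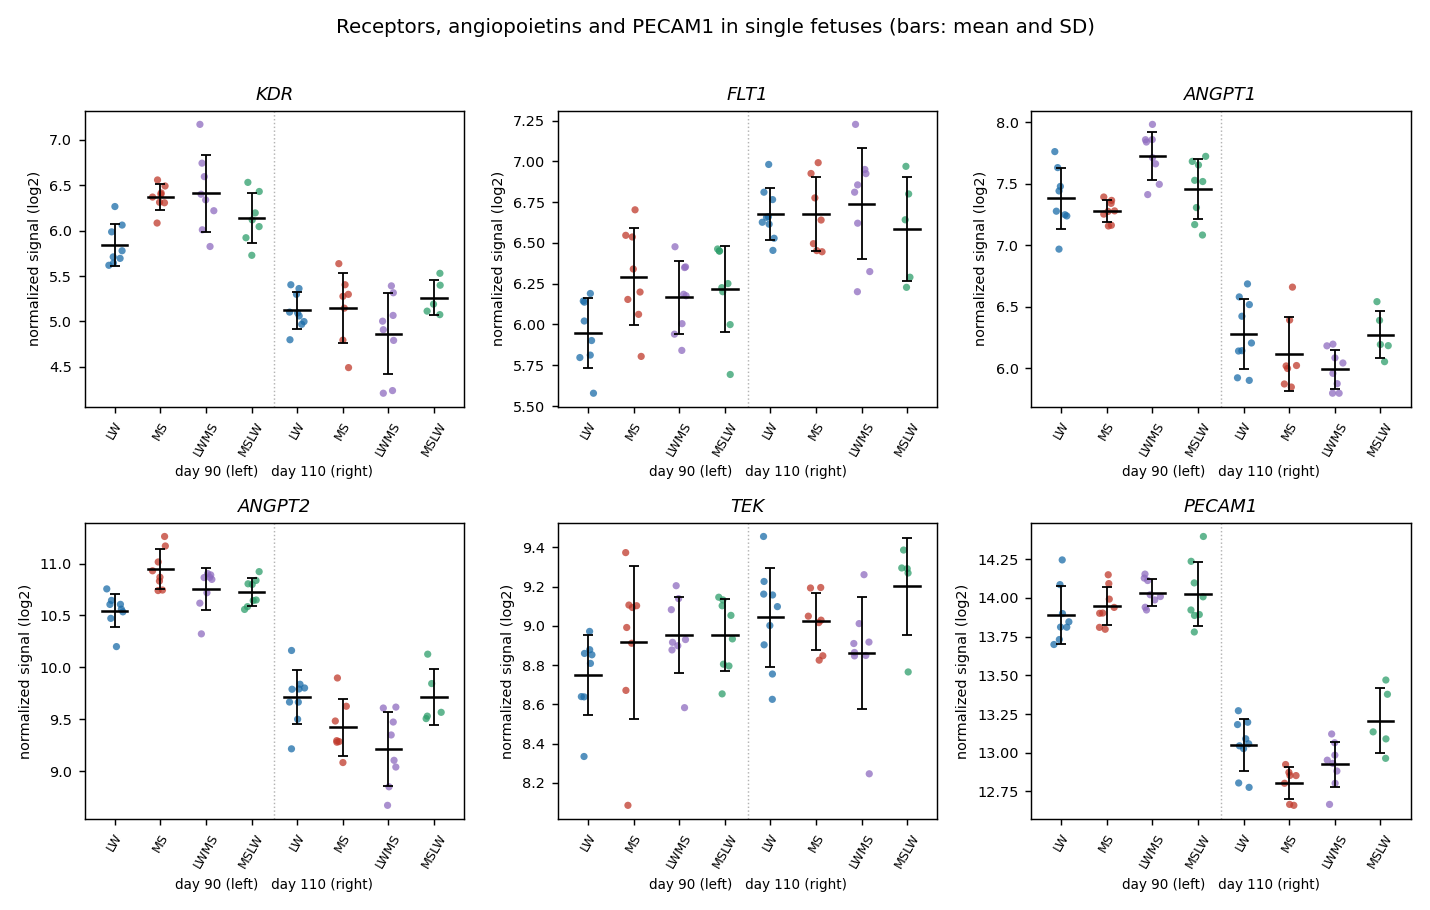
Normalised log2 signal of the main probe of KDR, FLT1, ANGPT1, ANGPT2, TEK and PECAM1 in each fetus (points) by genotype, day 90 left and day 110 right; black bars are the group mean and SD. KDR, ANGPT1, ANGPT2 and PECAM1 do not overlap between the ages within a genotype, FLT1 is higher at day 110, and TEK overlaps throughout.

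Within single genotypes, 7 of the 10 genes were called for age in both purebreds and in LWMS, and 6 in MSLW, where FLT1 was missing. The backgrounds were 45.3% of all probes in LW, 56.7% in MS, 50.9% for LWMS and 44.6% for MSLW. Counted by overlap, 6 genes were apart between the ages in LW, 7 in MS, 6 for LWMS and 5 for MSLW, where 23.3%, 37.9%, 30.4% and 28% of all probes were. VEGFA, KDR, ANGPT1, ANGPT2 and PECAM1 were apart in all 4 genotypes.

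The arrays measured whole muscle, so fewer endothelial cells and less RNA per endothelial cell cannot be told apart. Of 6 endothelial markers with a kept probe, a list that holds PECAM1 and TEK, 3 fell with age (PECAM1, CDH5 and CLDN5), 2 rose (VWF and TIE1) and TEK was not called. The log2 of their summed signal ranged from 15.71 to 16.19 over the groups of day 90 and from 14.47 to 15.31 over those of day 110. Fibroblast markers fell in 5 of 5 cases, from sums of 18.19 to 18.58 down to 16.20 to 17.53, while of 6 fibre markers 4 rose and 1 fell, from sums of 20.20 to 20.48 up to 20.43 to 20.78. Lymphatic markers fell in 3 of 3 cases, with sums of 12.76 to 13.98 at day 90 and of 12.10 to 13.57 at day 110. Of the pericyte and smooth muscle markers 3 rose and 2 fell (sums of 17.22 to 18.10, then 17.78 to 18.74), of the adipocyte markers 1 rose and 2 fell (sums of 8.88 to 11.11, then 8.52 to 11.37), of the red blood cell markers 1 rose and 1 fell (11.26 to 12.75, then 11.29 to 12.07), and of the leukocyte markers 1 of 3 fell (11.26 to 12.26, then 11.25 to 12.30). The part of these shifts in the changes of the 10 genes was not tested.

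Between the breeds, VEGFA and CCBE1 were higher in MS at both ages. At day 90 VEGFA, VEGFC, CCBE1 and KDR were higher in MS than in LW, 4 of 10 genes beside 12.8% of all probes called, 6.23% in that direction. At day 110 VEGFA and CCBE1 were higher, 2 genes beside 29% of all probes called, 13.7% in that direction. No main probe was called lower in MS at either age. The medians over the 10 main probes were 0.34 at day 90 and -0.05 at day 110, against -0.00 and 0.01 over all probes. By overlap, VEGFA, VEGFC and CCBE1 were apart at day 90, 3 genes beside 6.75% of all probes, and VEGFA and CCBE1 at day 110, 2 genes beside 8.27%. In all these counts CCBE1 had passed the filter only through MS and the crosses, since nearly all LW arrays lay at background. The probes of VEGFC and CCBE1 and the main KDR probe also came from the study's lists, chosen on these same arrays. The counts beside all probes are thus a description and no independent evidence.

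VEGFA was 0.91 ± 0.09 higher in MS at day 90 (1.87-fold, adjusted p = 3.1e-11) and 0.74 ± 0.09 higher at day 110 (1.67-fold, adjusted p = 5.9e-09). Its 8 MS values of day 90 all exceeded the 8 LW values, as did the 7 MS values of day 110 over the 9 of LW. MS was higher on 8 of 8 slides at day 90 and on 6 of 6 that held both breeds at day 110. The group means were ordered LW, crosses, MS at both ages, and MSLW minus LWMS was -0.00 ± 0.09 at day 90 and 0.07 ± 0.11 at day 110. The other 2 probes without shared bases gave 0.53 and 0.49 at day 90 and 0.53 and 0.63 at day 110, all called. The opposite-strand probe gave -0.10 and 0.44, neither called, and the mean over all 4 probes was 0.46 higher in MS at day 90 (adjusted p = 2.8e-05).

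CCBE1, seen in MS, was at background in nearly all LW fetuses. At day 90 none of the 8 LW arrays was well above background, with values of 1.61 to 3.08 (median 2.25), while the 8 MS values ran from 8.24 to 8.83 (median 8.40). Set against the lowest signal well above background on each LW array, CCBE1 was at least 29.98-fold higher in MS. The limma fit, which rests on LW values at background, gave an adjusted p of 4.1e-17. At day 110 a single LW array of 9 passed the background criterion (1 of 9), and the 7 MS values ran from 6.89 to 7.48 (median 7.33). By the same bound CCBE1 was at least 8.499-fold higher in MS than in LW. The limma fit at day 110 gave an adjusted p of 9.8e-12. Neither p-value tests a bound. MS was higher on 8 of 8 and 6 of 6 slides that held both breeds. These bounds hold for the background-corrected intensity used here, and no size beyond them is given, since LW lay at background. With other signals the fitted log2 difference between MS and LW fell below these bounds. At day 90 it was 3.77 on the deposited values, 3.72 on the median spot signal and 2.81 with normexp. At day 110 it was 2.40, 2.44 and 1.66, and all were called.

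The crosses sat between the purebreds for CCBE1. LWMS ranged from 1.66 to 7.35 (median 7.05) at day 90 and from 5.52 to 6.37 (median 6.23) at day 110. MSLW ranged from 6.71 to 7.37 (median 7.07) at day 90, and had 6.63, 5.85, 6.36, 6.83 and 6.46 at day 110. All cross arrays but 1 were well above background. On the intensity used here, CCBE1 at day 90 was at least 6.89-fold higher in LWMS and at least 11.3-fold higher in MSLW than in LW. Their difference from the mean of the purebreds is not given, since that mean includes LW arrays at background.

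In 2 fetuses CCBE1 stood far from the rest of their groups. A LWMS fetus of day 90 had 1.66, where the next lowest of its group had 6.39, and a LW fetus of day 110 had 6.002, where the next highest had 3.22. The labels of both were checked on the 53 other probes that differed between MS and LW by over 3 on the log2 scale at both ages, placing each fetus between the LW mean (0) and the MS mean (1). The LWMS fetus lay at 0.20, where its group ran from 0.17 to 0.27, and the LW fetus at -0.02, where its group ran from -0.04 to 0.01. Both were thus within their own groups on these probes. MSLW fetuses of day 90 ran from 0.16 to 0.27, so this check cannot tell the 2 crosses apart. The probes were also chosen on these same arrays. Without them the lower bound was 9.96-fold for MS over LW at day 110, and 10.97-fold for LWMS over LW at day 90, so that the latter bound moved by over 1.5 times with 1 fetus.

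The KDR probes disagreed. The main probe was 0.52 ± 0.15 higher in MS at day 90 (adjusted p = 0.0097) and differed by 0.03 ± 0.15 at day 110. The call of day 90 was narrow: it was lost without MSLW replicate 1, 2, 4 or 5 of day 110 (adjusted p of 0.010 to 0.011), without the 2 fetuses apart for CCBE1 (adjusted p = 0.010), without the filter on dim probes (adjusted p = 0.014), with scaling to the 75th percentile (0.49, adjusted p = 0.019), with non-uniform spots kept (0.53, adjusted p = 0.083) and with the mean of the 4 probes (0.07, adjusted p = 0.75). With normexp it was called at 0.27. Probe A_72_P380298 was lower in MS at both ages, by 0.71 ± 0.17 at day 90 (adjusted p = 0.00088) and by 1.31 ± 0.17 at day 110 (adjusted p = 5.9e-09). On that probe LW ranged from 10.75 to 11.18 and MS from 9.55 to 10.65 at day 90, and LW from 9.81 to 10.49 and MS from 7.99 to 9.46 at day 110, without overlap. Both crosses lay between, with means of 10.52 in LWMS and 10.64 in MSLW at day 90, and of 9.24 and 9.45 at day 110. It was lower in MS on 8 of 8 and 6 of 6 slides. The remaining KDR probes differed by 0.23 and 0.25 at day 90 and by -0.19 and -0.03 at day 110, none called.

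**Figure D3:**
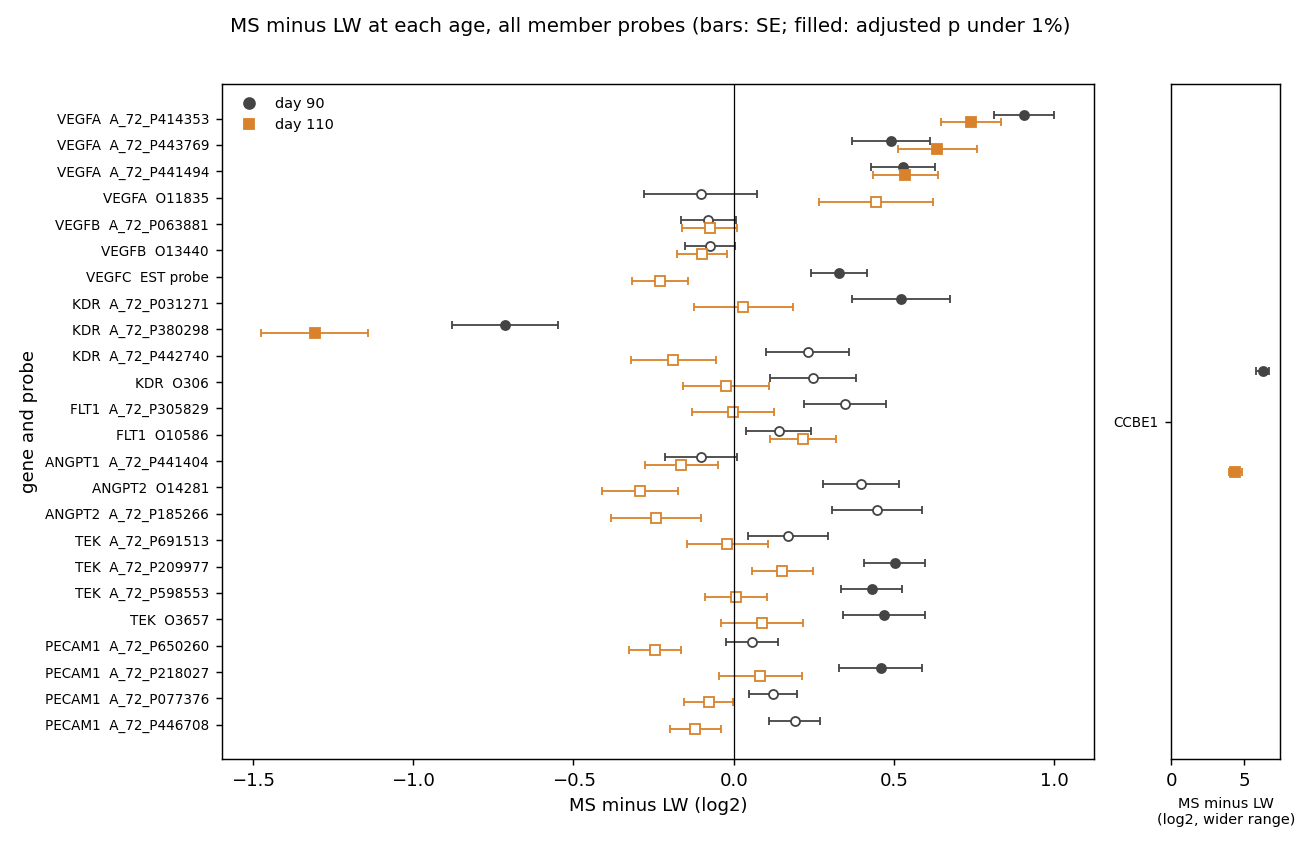
MS minus LW on the log2 scale for all 25 probes (CCBE1 in its own panel with a wider axis, where the fitted values rest on LW arrays at background and only their bounds are known), at day 90 (circles) and day 110 (squares); bars are SE and filled symbols had an adjusted p under 1%. At day 90 most probes lie right of 0 and at day 110 near it, VEGFA stays right of 0 with 3 of its 4 probes, and KDR probe A_72_P380298 lies left of 0 at both ages.

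Among the remaining members, calls between the breeds in the main fit were limited to day 90. VEGFC was 0.33 ± 0.09 higher in MS at day 90 (1.26-fold, adjusted p = 0.0039, higher on 8 of 8 slides), and all 8 MS values exceeded all LW values. That call was lost on the deposited values and on the median spot signal (0.27 each, adjusted p = 0.015 and 0.016). At day 110 its difference was -0.23 ± 0.09 (adjusted p = 0.032). ANGPT2 was 0.40 ± 0.12 higher at day 90 (adjusted p = 0.011), which passed the threshold with the slide as a block (adjusted p = 0.0047), and its value at day 110 was -0.29 ± 0.12 (adjusted p = 0.044). TEK's main probe gave 0.17 ± 0.12 at day 90, but its 3 other probes were each called higher in MS, by 0.43 to 0.50. Of the PECAM1 probes 1 of 4 was called higher at day 90 (0.46 ± 0.13). FLT1 (0.35 ± 0.13 at day 90, adjusted p = 0.047), VEGFB and ANGPT1 were not called with any probe at either age.

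The fall with age was steeper in MS than in LW for VEGFC and ANGPT2. The difference in age change was -0.56 ± 0.12 for VEGFC (adjusted p = 0.0014) and -0.69 ± 0.17 for ANGPT2 (adjusted p = 0.0037), 2 of 10 genes beside 5.95% of all probes. The VEGFC probe was a member only through the study's lists, chosen on these same arrays for such differences. Its call is therefore no independent evidence, and the count is a description. VEGFC fell by 0.98 ± 0.09 in MS and by 0.42 ± 0.08 in LW, and ANGPT2 fell by 1.52 ± 0.12 in MS and by 0.83 ± 0.12 in LW. The second ANGPT2 probe gave -0.69 ± 0.20 and missed the threshold (adjusted p = 0.014). For the other 8 genes the difference was not called, and apart from CCBE1, whose LW arrays lay at background and whose call depended on the setting, the values ran from -0.49 ± 0.22 for KDR to 0.00 ± 0.12 for VEGFB. PECAM1 (-0.30 ± 0.11, adjusted p = 0.067) and KDR (adjusted p = 0.12) had the sign of VEGFC. Fibroblast markers moved with this difference, with 4 of 5 called steeper in MS and sums at day 110 of 16.20 to 16.58 in MS and 16.84 to 17.53 in LW, as did 4 of 6 fibre markers, called in the other direction. The part of these markers in it was not tested.

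The reciprocal crosses address whether the age change followed the sow or the boar. In a model of age and the genotypes of both parents, with each pair of terms allowed to interact, the maternal genotype by age term was called for VEGFC (-0.55 ± 0.09, adjusted p = 4.5e-05) and ANGPT2 (-0.62 ± 0.12, adjusted p = 0.00060), 2 of 10 genes beside 3.05% of all probes. For VEGFC this call too is no independent evidence, since its probe came from lists chosen on these same arrays. The paternal term was called for 0 of 10 genes, with 3 at an unadjusted p under 0.05, beside 0.462% of all probes. VEGFC fell by 0.98 in MS and 0.99 in LWMS, which had MS sows, and by 0.42 in LW and 0.44 in MSLW, which had LW sows. ANGPT2 fell by 1.52 and 1.54 with MS sows, and by 0.83 and 1.01 with LW sows. MS and LWMS fetuses came from litters of the same sows, as did LW and MSLW, so these pairs of falls are not independent. An effect of the sow's genotype cannot be told apart here from differences between litters. The maternal term was called for the second ANGPT2 probe as well (-0.60 ± 0.14, adjusted p = 0.0050), as for 1 TEK probe (-0.39 ± 0.10, adjusted p = 0.0078). Of the markers, the maternal term was called lower for 2 of 5 of fibroblasts, 2 of 6 of pericytes and smooth muscle, 1 of 6 of endothelium and 1 of 3 of lymphatic endothelium, and higher for 3 of 6 of fibres and 1 of 6 of pericytes and smooth muscle. It was called for none of the adipocyte, leukocyte and red blood cell markers, and the part of the markers in the term was not tested.

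Other members had the same sign with less certainty. KDR gave -0.61 ± 0.16 (adjusted p = 0.012, and 0.0049 with the slide as a block), PECAM1 -0.29 ± 0.08 (adjusted p = 0.018) and ANGPT1 -0.34 ± 0.12 (adjusted p = 0.074). Over 14 settings the KDR term ran from -0.64 to -0.29, with adjusted p from 0.0032 to 0.22, and passed the threshold in 5. The maternal term was -0.13 ± 0.10 for VEGFA and -0.04 ± 0.09 for VEGFB. Since the maternal genotype belongs to the sow, and fetuses of 1 sow share it, the number of sows limits this comparison. These p-values do not take it into account. The same limit holds for the age changes, since fetuses taken by 1 caesarean share their age.

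**Figure D4:**
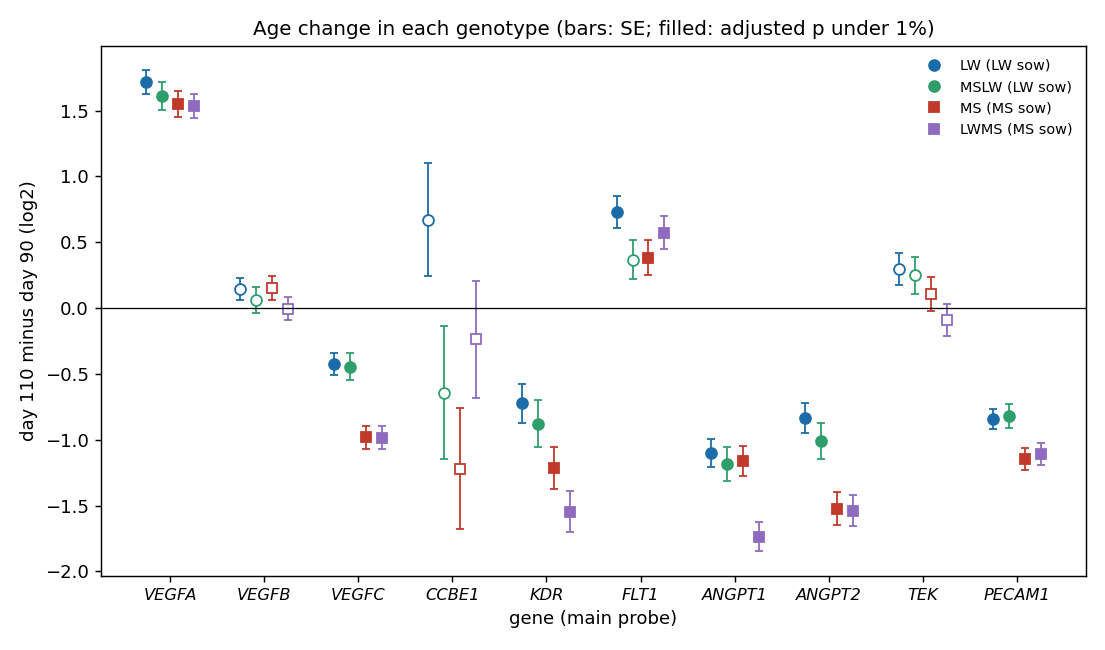
Day 110 minus day 90 on the log2 scale for the main probe of each gene, by genotype; circles are genotypes with a LW sow and squares those with a MS sow, bars are SE, and filled symbols had an adjusted p under 1%. For VEGFC and ANGPT2 the squares lie below the circles, while VEGFA rises by 1.53 to 1.72 in all 4 genotypes.

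Between the crosses themselves, 0 of 10 genes were called at day 90, with 1 at an unadjusted p under 0.05 (ANGPT1), beside 0.5% of all probes. At day 110 VEGFC was called, 0.47 ± 0.10 higher in MSLW than in LWMS (1.39-fold, adjusted p = 0.0029), 1 of 10 genes beside 0.912% of all probes. MSLW was higher on 4 of 5 slides that held both crosses. The call rests on 5 MSLW fetuses: it was lost without replicate 1 (0.45), replicate 2 (0.42) or replicate 3 (0.46), with adjusted p from 0.011 to 0.021. ANGPT2 was 0.50 ± 0.14 higher in MSLW (adjusted p = 0.028) and was called only with the slide as a block (adjusted p = 0.0097). Without 1 MSLW fetus each it was 0.40 to 0.55, with adjusted p from 0.027 to 0.16. Against the mean of the purebreds the crosses had 0 of 10 genes called by limma at day 90 and at day 110, with 3 and 2 at an unadjusted p under 0.05, beside 0.0495% and 0.0778% of all probes.

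The wider vascular programme was followed in 6 lists of other genes, 44 of 58 listed symbols with a kept probe (FIGF and VEGFD are names of 1 gene). Averaged over genotypes, 14 rose, 25 fell and 5 were not called with age, beside 37.3% of all probes higher and 35% lower, a background that holds for the counts of each list that follow, with a median change of -0.26 beside 0.04 for all probes. These lists were drawn up with earlier results of these data known, and the counts are a description.

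Of 5 other ligands and receptors near the VEGF system, PGF (a FLT1 ligand), NRP2 and NRP1 (co-receptors) fell, by 0.76, 0.50 and 0.30, and FIGF was not called. TIE1, the partner of TEK, rose by 0.59 on its main probe, but its second probe fell by 0.96, and both were called. Of 6 lymphatic genes LYVE1 (-1.13), CCL21 (-0.87), PDPN (-0.75) and PROX1 (-0.55), the lymphatic master regulator, fell, FOXC2 rose by 0.40 and SOX18 was not called. The second LYVE1 probe gave 0.02 and was not called.

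Of 13 endothelial genes 8 fell and 4 rose. The largest falls were those of CLDN5, a tight junction protein (-1.53), and CD34 (-1.34), and CDH5, the endothelial cadherin, fell by 1.22. VWF, the clotting factor stored by endothelial cells, rose by 1.29 and THBD, an anticoagulant receptor, by 0.53. All 3 VWF probes and all 4 THBD probes rose.

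Of 7 genes of pericytes and smooth muscle, MCAM (-1.60), CSPG4 (-1.17) and RGS5 (-0.74) fell, while ACTA2 (0.75), TAGLN (0.60) and PDGFRB (0.60) rose, and MYH11 was not called. ACTA2 and PDGFRB had further probes called in the other direction. All 5 angiogenesis inhibitors fell, led by COL18A1, the source of endostatin (-1.68), and SPRY2 (-1.39), and THBS1 had 1 of 7 probes called higher.

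Of 8 genes on the hypoxia list, which also holds PPARGC1A, 5 rose and 2 fell. EGLN3 and EGLN1, hydroxylases that mark HIF subunits for decay, rose by 2.18 ± 0.08 (4.52-fold) and 0.94 ± 0.06, PPARGC1A by 0.93 and EPAS1, the HIF subunit of endothelium, by 0.87. HIF1A fell by 0.60 and EGLN2 by 0.47. The 4 EPAS1 probes ran from 0.21 to 0.87, all called, and the 4 HIF1A probes from -0.62 to -0.13, 3 of them called.

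**Figure D5:**
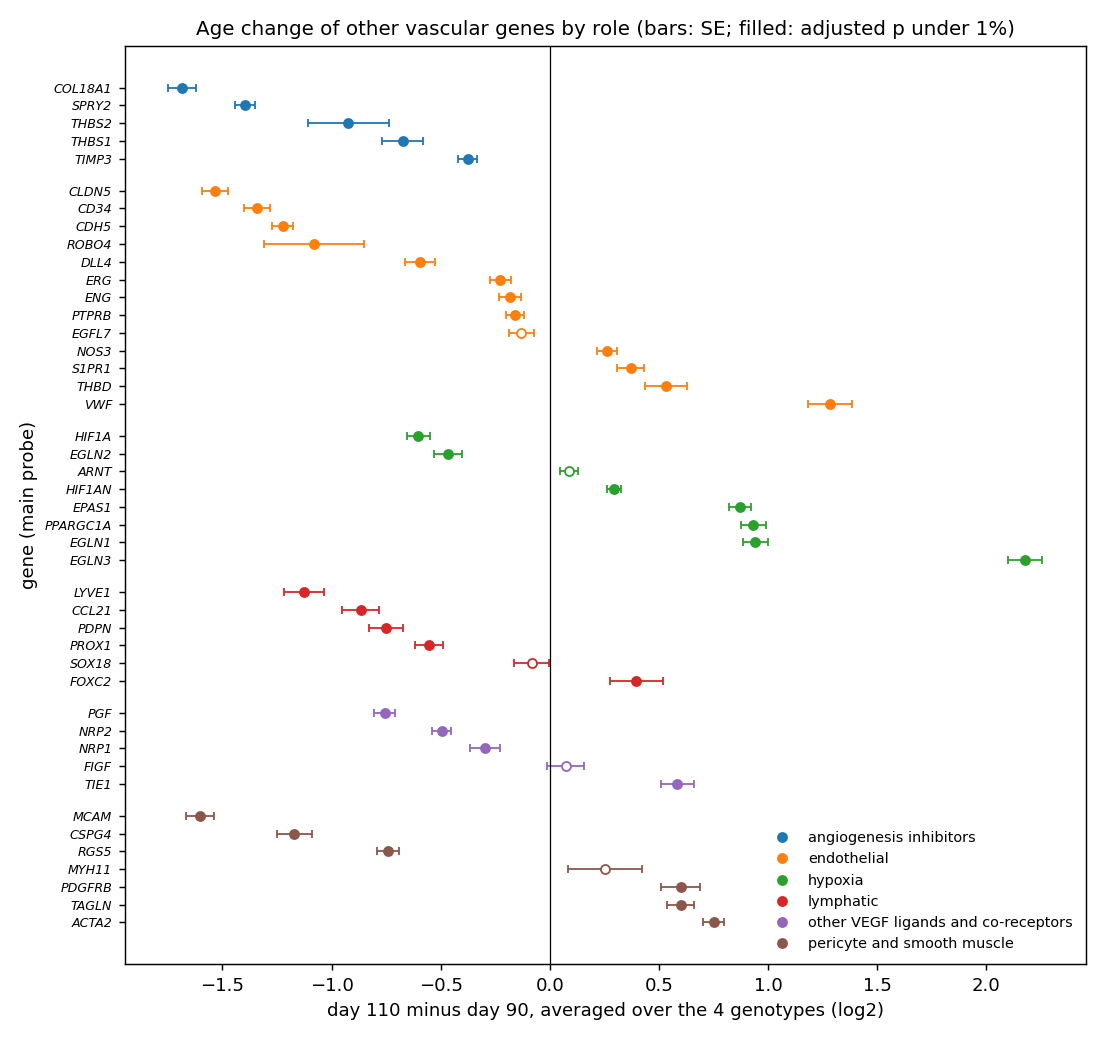
Day 110 minus day 90 averaged over the 4 genotypes (log2) for the 44 other vascular genes with a kept probe, by list; bars are SE and filled symbols had an adjusted p under 1%. All 5 angiogenesis inhibitors lie left of 0, EGLN3 lies furthest right, and the endothelial list runs from CLDN5 at -1.53 to VWF at 1.29.

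Between the breeds 8 of the 44 genes were called higher in MS and 0 lower at day 90, beside 12.8% of all probes called and 6.23% higher. At day 110, 6 were higher and 7 lower, a share near the 29% of all probes called. The difference in age change was called for 10 of the 44, beside 5.95% of all probes. Main probes of these genes were also taken first from the study's lists, chosen on these same arrays for such differences. This share is therefore a description. The difference in age change was lower in MS for 8 genes: CCL21 (-1.31), PROX1 (-0.80), CD34 (-0.61), CSPG4 (-1.42), MYH11 (-1.74), MCAM (-0.74), COL18A1 (-0.72) and TIMP3 (-0.71). It was called higher for TIE1 (0.87) and PDGFRB (1.13), both with probes that disagreed for age.

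After group and slide means were removed, the main probes of the 10 genes were compared over the 61 arrays. Pearson's r over the 45 pairs ran from -0.46 (VEGFA and TEK) to 0.37 (VEGFC and FLT1), with a median of -0.01. Probes of the same gene, 27 pairs, had a median r of 0.45 and a range from -0.15 to 0.84. The most alike probes of other genes were those of GNG12, LUM and SDCBP for VEGFC (r of 0.69 to 0.73) and CXCR4, TPM3 and PSIP1 for ANGPT1 (0.62 to 0.70). For ANGPT2 they were MECOM, CD163 and CRIM1 (0.57 to 0.59), for KDR UBE2Q1, RFXAP and CLN8 (0.62 to 0.64), and for CCBE1 TUFT1, LRRFIP2 and CENPT (0.49 to 0.56). For FLT1 they were RNF103, CSNK2B and MARCH6 (0.66 to 0.71), for TEK TMEM59, RPS6KA1 and RNF130 (0.63 to 0.70), and for PECAM1 VAMP8, GFOD2 and MID2 (0.68 to 0.71). These are descriptions over arrays that share labelling and normalisation.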

How the data were processed

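The authors scanned 61 single-colour Agilent arrays, 1 per fetus, and deposited the spot intensity written by Feature Extraction (version 10.10.1.1 per the labels' processing notes), along with their own normalised log2 values. The processed intensity was used here, since the deposited log2 values were kept for an alternative. They lay within a median of 0.0206 of values rebuilt from the median spot signal and within 0.187 of those used. Control spots and spots marked non-uniform were left out, spots of a probe averaged, and arrays quantile normalised. Probes entered the tests where 80% or more of the arrays of some group were well above background.

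Groups came from the sample labels. A linear model with 8 group means was fitted with limma 3.58.1 in R 4.3.3 (files read with the data.table package, version 1.17.8), and contrasts were tested with the moderated test and Benjamini-Hochberg adjustment at 1%. A second model held age and the genotype of each parent with all 2-way interactions. The authors treated the sow as a random effect. The labels used here do not name it, so it was left out. The main probe was the one on the study's additional gene lists, else the one named by the array, with the highest mean. Of the other vascular genes, 2 in each direction per list and those called for the difference in age change were to be named, and further genes named were chosen after their values were seen. Members and lists were chosen with earlier results of these data known. CCBE1 bounds take, per dim array, the higher of the lowest signal among probes well above background and the probe's own. The number of arrays limits the precision, and all scripts with tests were tested on simulated data. Alternatives were another background correction, scaling, spot signal, filter, probe rule, samples, slide as a block, and leaving out MSLW fetuses. The fetuses apart for CCBE1 were left out as an alternative chosen after seeing the data. The genes most alike to VEGFA and VEGFB are not reported here.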

Additional observations from a re-analysis of the deposited data

Results flagged for a closer look

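In 7 of 80 groups of fetuses, checked for the 10 main probes, the lowest or highest fetus stood apart from the rest by Dixon's criterion, where chance gives about 1 in 20. For CCBE1 these were the LWMS fetus of day 90 at 1.66, with the nearest at 6.39, and the LW fetus of day 110 at 6.002, with the nearest at 3.22. For VEGFB a LW fetus of day 90 had 14.83 (nearest 15.11) and a LWMS fetus of day 110 had 14.61 (nearest 15.11). For VEGFC a MS fetus of day 90 had 10.55 (nearest 10.43). For TEK a LWMS fetus of day 110 had 8.25 (nearest 8.85) and a MSLW fetus of day 110 had 8.77 (nearest 9.27).

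MS and LW had different age changes for VEGFC (-0.56) and ANGPT2 (-0.69), and by maternal genotype for VEGFC (-0.55) and ANGPT2 (-0.62), each by a test of the difference itself in limma. The VEGFC probe came from the study's lists, chosen on these same arrays for such differences.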

How the results depend on the processing

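Of the values of single genes under the alternatives, 2058 kept their side of the threshold, 43 passed it and 19 lost it. Of all 2122, 66 had the other sign, 64 of them with neither value called, and the other 2 were these. VEGFB in LWMS turned from -0.00 to 0.51 with scaling to the 75th percentile, and KDR between the breeds at day 110 from 0.03 to -0.37 as the mean over its probes. The scaling moved the median of all probes to at most 0.13. The count of genes called between the breeds at day 110 fell from 2 to 1 where probes had to be well above background on all arrays, a filter under which CCBE1 and the main KDR probe gave no value. Between the crosses at day 110 it was 2 with the slide as a block and 0 to 1 without 1 MSLW fetus each. Without the 2 fetuses apart for CCBE1, a choice made after seeing the data, 1 gene, CCBE1, was called between crosses and purebreds at each age, which rests on LW arrays at background. ANGPT2's difference in age change missed the threshold on the median spot signal (-0.62, adjusted p = 0.010). The causes were not tested. No paired analysis was possible because the labels give each fetus its own identifier and no replicate number shared between groups, so the slide served as a block instead. CCBE1 in LW lay at background, so only bounds of its folds are known, and these hold for the processed intensity.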
